A study of Mus musculus with 15 samples.

Results

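The genes described here are 35 members of the p53 pathway, among 34432 genes listed in each of the 2 expression tables of CT26 cells, a clonal mouse colon carcinoma line. They were taken by symbol and separated by role into p53 and its direct regulators (4 genes), cell cycle arrest (7), apoptosis and death receptors (13), DNA repair and nucleotide supply (4) and metabolism and stress (7). RNA-sequencing compared CT26 cells with a control hairpin (shControl) with cells carrying a tet-inducible Prmt1 hairpin (shPrmt1), and, in a second experiment, wild-type CT26 cells given vehicle, MS023 or GSK3368715, which inhibit PRMT1 and related arginine methyltransferases. Each group held 3 libraries, described as biological replicates. The shPrmt1 cells had received doxycycline (DOX) for 3 days, and nothing states whether the shControl cells received it, so DOX and the knockdown cannot be told apart. Both inhibitors were given at 6 µM for 48 hours. The comparisons ask how the members differed with less PRMT1, or with PRMT1 inhibited, from the controls of the same experiment.

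p53 is a transcription factor that DNA damage, oncogene activity and ribosomal stress stabilize, mainly by releasing it from the ubiquitin ligase MDM2. It binds pairs of half-sites near its targets and raises their transcription, and the targets halt the cell cycle, start cell death, repair DNA or adjust metabolism. Mdm2 is itself a target, which closes a negative feedback loop, and much of the control of p53 acts on the protein, so that the level of the Trp53 transcript says little about its activity.

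The promoters of the members were searched for the letters that p53 is known to bind. RefSeq promoter windows of 300 bases (GRCm38.p6, 250 bases before to 50 bases after a transcription start) were present for 27 of the 35 members. The p53 half-site consensus, which reads the same on both strands, was found in the windows of 10 of these 27 genes (37.0%) and of 2582 of 27025 genes in the whole table (9.55%). A pair of half-sites with at most 13 bases between them was found in 20 genes of the table (0.074%), and among the members only in Cdkn1a. Of the 10 members with a window that rose in shPrmt1 cells, 4 held a half-site, against 6 of the 14 with a window that were tested and did not rise. A match had to fit all 10 letters of the half-site, so half-sites with a mismatch were not counted. It describes letters in a short window, and p53 sites farther from the start were not searched. The Cdkn1a window is shown for its pair of half-sites, which stand in capitals with 12 bases between them (chr17:29090729-29091028, plus strand), and the 10 bases that follow the second half-site fit 9 of the 10 letters of a further one.
Cdkn1a: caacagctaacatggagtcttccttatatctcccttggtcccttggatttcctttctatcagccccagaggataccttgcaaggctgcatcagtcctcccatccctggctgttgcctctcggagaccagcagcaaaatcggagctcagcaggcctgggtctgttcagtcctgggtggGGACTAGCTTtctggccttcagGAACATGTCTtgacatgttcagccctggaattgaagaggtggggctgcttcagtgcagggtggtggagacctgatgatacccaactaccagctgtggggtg
The Btg2 window (chr1:134079106-134079405, minus strand) is shown as that of the member with the largest fold change among those with a window that were called in shPrmt1 cells. It held no half-site that fit all 10 letters.
Btg2: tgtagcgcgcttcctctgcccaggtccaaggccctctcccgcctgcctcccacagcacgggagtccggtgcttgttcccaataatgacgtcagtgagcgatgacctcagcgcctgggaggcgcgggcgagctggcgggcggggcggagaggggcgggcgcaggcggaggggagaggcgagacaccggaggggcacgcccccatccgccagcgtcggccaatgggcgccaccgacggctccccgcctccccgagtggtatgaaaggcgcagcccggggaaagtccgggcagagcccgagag
The windows of Mdm2, Ccng1, Gadd45a and Sesn1, chosen after the matches were seen, are shown for 50 bases around the half-site, in capitals, since these are the members with a half-site that rose in shPrmt1 cells. They lie at chr10:117710915-117710964 (minus strand), chr11:40755442-40755491 (minus), chr6:67037418-67037467 (minus) and chr10:41887246-41887295 (plus).
Mdm2: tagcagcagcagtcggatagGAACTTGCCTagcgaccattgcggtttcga
Ccng1: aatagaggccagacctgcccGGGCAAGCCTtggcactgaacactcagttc
Gadd45a: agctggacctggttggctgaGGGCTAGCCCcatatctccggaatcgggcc
Sesn1: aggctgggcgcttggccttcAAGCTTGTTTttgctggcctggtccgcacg

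Values are normalized counts, the reads on a gene divided by a size factor of its library, and levels of the knockdown and inhibitor experiments were scaled apart. Libraries held 17284091 to 29233738 reads on genes in the knockdown experiment and 40119305 to 93697833 in the inhibitor experiment. Prmt1, the targeted gene, had 5601, 5717 and 5620 normalized counts in shControl and 669, 761 and 683 in shPrmt1 libraries, 12.5% of the shControl mean, and its mean under the inhibitors was 95% and 99.2% of the vehicle mean. The 8 epithelial or colon markers summed to 526 to 1564 normalized counts per library, most of it in Krt18 (378 to 1414) and Cdh17 (76.3 to 156), while the defining markers Epcam, Cdh1 and Vil1 were under 10 in every library. The mesenchymal transcripts Vim, Fn1 and Cdh2 summed to 76754 or more. The 6 blood and endothelial markers summed to 4.85 to 53.1. In bulk RNA, fewer cells with a transcript and less RNA per cell cannot be told apart. The library shPrmt1 2 stood apart from the other libraries of its group, with the lowest or highest value of the group in 28 of 30 members tested, where it held such a value in 84.5% of all genes, and results that rest on it are given without it as well. The vehicle group was uneven too. Vehicle 1 held its lowest or highest value in 28 of 31 members (73.9% of all genes) and vehicle 2 in 24 (74.8%).

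**Figure D1:**
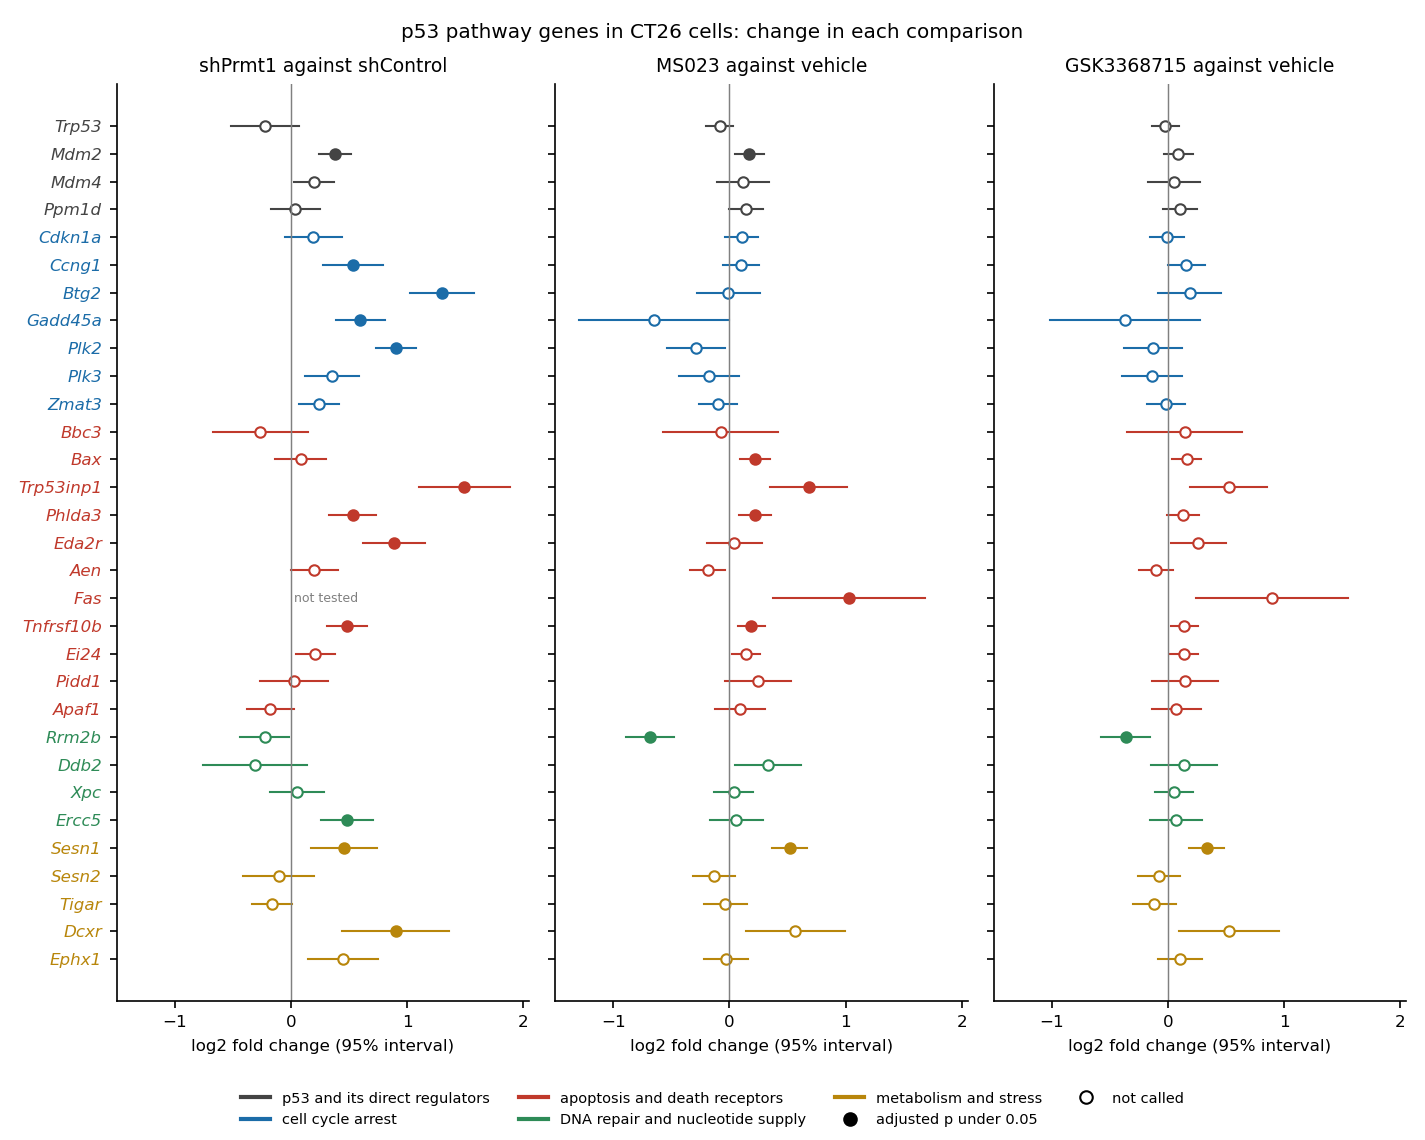
Log2 fold change (x axis) of each member that was tested in at least 1 comparison (y axis, coloured by role), with its 95% interval, in shPrmt1, MS023 and GSK3368715 cells. Filled points passed an adjusted p of 0.05. In shPrmt1 cells 12 members were filled, all to the right of 0, against 8 with MS023 and 2 with GSK3368715. These were 40.0%, 25.8% and 6.45% of the members tested, where 14.7%, 27.9% and 9.64% of all genes were called.

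In shPrmt1 cells, 12 p53 pathway genes were higher than in shControl cells and none was lower. The largest called increases were in Trp53inp1 (2.85-fold) and Btg2 (2.49-fold), followed by Dcxr (1.90-fold), Plk2 (1.87-fold) and Eda2r (1.86-fold). Trp53 itself and Cdkn1a, the gene for the cyclin-dependent kinase inhibitor p21, did not pass the test. The log2 of the normalized count + 1 was tested by limma with Benjamini-Hochberg adjustment for 11485 genes, those that reached 10 normalized counts in 3 or more libraries, and a gene was called at an adjusted p under 0.05. The 30 members tested had at least 10 normalized counts in all 6 libraries, and 40.0% of them were called higher, where 7.5% of all genes tested were called higher, 7.17% lower and 14.7% in either direction. With all libraries scaled to an equal total, calls over all genes went from 861 higher and 823 lower to 1082 and 666, and those over the members from 12 to 15, all higher. The median log2 fold change of the 30 members was 0.22, against -0.0036 over all genes tested. The 3 shPrmt1 libraries did not overlap the 3 shControl libraries in 21 members (70.0%), against 38% of all genes.

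Among p53 and its direct regulators, Mdm2 (ENSMUSG00000020184, chromosome 10 of mm10, 117688875 to 117710758, minus strand), the ligase that marks p53 for degradation, had 2382, 2359 and 2272 normalized counts in shControl and 2986, 3190 and 2946 in shPrmt1 libraries. No shPrmt1 value fell into the shControl range, and the log2 fold change was 0.38 ± 0.06 (SE, limma adjusted p = 0.00569). Trp53 had 3872, 3426 and 3800 normalized counts in shControl and 3499, 2532 and 3588 in shPrmt1 libraries. The groups overlapped, and shPrmt1 2 held the lowest value, with a log2 fold change of -0.22 ± 0.13 (limma adjusted p = 0.279) that was -0.06 without that library. Mdm4, which restrains p53 together with MDM2, and Ppm1d, a phosphatase that switches off p53 signaling, were not called.

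Among the 7 arrest genes, 4 were called higher (57.1%, against 7.5% of all genes). All 7 fold changes were above 0, where 5677 of 11485 were over all genes. The roles held few genes each, and their shares were not compared by a test. Btg2 (ENSMUSG00000020423, chromosome 1, 134075170 to 134079120, minus strand), an antiproliferative factor that binds the CCR4-NOT deadenylase, had 82.8, 77 and 71.9 normalized counts in shControl and 187, 196 and 192 in shPrmt1 libraries. The shPrmt1 mean was 192 ± 4.44 (SD, n = 3) and the shControl mean 77.2 ± 5.45, a log2 fold change of 1.30 ± 0.12 (SE, limma adjusted p = 0.000423). Plk2, a polo-like kinase, had 1174, 1327 and 1157 normalized counts in shControl and 2252, 2391 and 2211 in shPrmt1 libraries, all well separated (log2 fold change 0.91 ± 0.08, limma adjusted p = 0.000254). Gadd45a, a growth arrest and DNA damage gene, had 280, 297 and 268 in shControl and 414, 455 and 409 in shPrmt1 libraries. Its log2 fold change was 0.60 ± 0.09 (limma adjusted p = 0.00469). Exons of Gadd45a share 337 bases with E230016M11Rik on the other strand, a gene for which no values were listed. Ccng1, which encodes cyclin G1, had 4556, 5059 and 4497 in shControl and 6282, 8237 and 6127 in shPrmt1 libraries, the highest again in shPrmt1 2. Its log2 fold change was 0.54 ± 0.11 (limma adjusted p = 0.0167), and the call was lost without shControl 1 (adjusted p = 0.0734) or shControl 3 (0.0721).

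Cdkn1a (ENSMUSG00000023067, chromosome 17, 29090976 to 29100727, plus strand) had 3434, 3123 and 3309 normalized counts in shControl and 4134, 3134 and 4076 in shPrmt1 libraries. Libraries 1 and 3 of shPrmt1 were above every shControl library, and shPrmt1 2 was within the shControl range. The log2 fold change was 0.19 ± 0.11 (limma adjusted p = 0.263) with all libraries and 0.32 (limma adjusted p = 0.0035) without shPrmt1 2. Leaving out shPrmt1 2 raised the number of members called from 12 to 20, with Aen, Bax, Cdkn1a, Ei24, Ephx1, Plk3 and Zmat3 added as higher and Rrm2b as lower, while calls over all genes went from 1684 to 2472. Plk3, another polo-like kinase, and Zmat3, an RNA-binding zinc finger protein, had log2 fold changes of 0.35 and 0.24 that missed the threshold with all libraries (limma adjusted p = 0.0533 and 0.0679). Plk3 and the antisense gene Tctex1d4 share 84 bases of exon, where reads cannot be told apart without strand. Tctex1d4 had 3 reads in the whole knockdown experiment, against 341 to 503 per library for Plk3.

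Of the 10 apoptosis genes tested, 4 rose (40%, against 7.5% of all genes). Trp53inp1, a stress-induced nuclear protein that promotes death and autophagy, had 122, 108 and 92.9 normalized counts in shControl and 277, 382 and 264 in shPrmt1 libraries. It had the largest log2 fold change of the 30 members tested, 1.49 ± 0.17 (SE, limma adjusted p = 0.00116). Eda2r, a receptor of the TNF receptor family for ectodysplasin A2, had 316, 306 and 280 in shControl and 521, 650 and 507 in shPrmt1 libraries (log2 fold change 0.89 ± 0.12, limma adjusted p = 0.00211). For both genes shPrmt1 2 was the highest library, and the groups did not overlap.

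Phlda3, an inhibitor of AKT, had 902, 852 and 922 normalized counts in shControl and 1345, 1151 and 1382 in shPrmt1 libraries (log2 fold change 0.53 ± 0.09, limma adjusted p = 0.00604). Tnfrsf10b, the TRAIL death receptor, had 716, 741 and 700 in shControl and 980, 1079 and 963 in shPrmt1 libraries (log2 fold change 0.48 ± 0.08, limma adjusted p = 0.00497). The groups were separate in both genes. The mitochondrial death effectors moved less. Bax, which forms pores in the outer mitochondrial membrane, had 2097, 1963 and 2058 in shControl and 2371, 1853 and 2293 in shPrmt1 libraries (log2 fold change 0.08, limma adjusted p = 0.591; 0.19 and 0.0293 without shPrmt1 2). Bbc3, which encodes the BH3-only protein PUMA, had a log2 fold change of -0.26 (limma adjusted p = 0.353).

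Of the 4 repair genes, only Ercc5 was called (25%, against 14.7% of all genes), which encodes the XPG endonuclease of nucleotide excision repair. It had 479, 503 and 513 normalized counts in shControl and 755, 613 and 730 in shPrmt1 libraries (log2 fold change 0.48 ± 0.10, limma adjusted p = 0.0142). Rrm2b, the p53-inducible small subunit of ribonucleotide reductase, had 922, 1020 and 913 in shControl and 776, 910 and 761 in shPrmt1 libraries. Its log2 fold change was -0.22 ± 0.09 (limma adjusted p = 0.139), and -0.31 (adjusted p = 0.0163) without shPrmt1 2. The damage recognition genes Ddb2 and Xpc were not called. Exons of Ddb2 share 652 bases (23.8% of their length) with Acp2 on the other strand, where reads cannot be told apart without strand. Acp2 had 4402 reads in the whole knockdown experiment, against 57 to 129 per library for Ddb2.

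Of the 5 metabolism and stress genes tested, 2 rose (40%, against 7.5% of all genes). Sesn1, a sestrin that restrains mTORC1, had 195, 201 and 186 normalized counts in shControl and 261, 309 and 235 in shPrmt1 libraries (log2 fold change 0.46 ± 0.12, limma adjusted p = 0.0412). Dcxr, a reductase of xylulose, had 25.5, 31.0 and 27.6 in shControl and 53.7, 60.6 and 45.9 in shPrmt1 libraries (log2 fold change 0.90 ± 0.20, limma adjusted p = 0.0218). The groups did not overlap in either gene. Both calls were lost without shControl 1, 2 or 3 or shPrmt1 1, with adjusted p between 0.0773 and 0.139 for Sesn1 and between 0.0504 and 0.0886 for Dcxr. The call of Ercc5 was lost without shControl 1 or 2 or shPrmt1 3 (adjusted p from 0.0503 to 0.0708). The remaining 8 of the 12, which were Mdm2, Btg2, Gadd45a, Plk2, Trp53inp1, Phlda3, Eda2r and Tnfrsf10b, were called with each of the 6 libraries left out in turn.

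**Figure D2:**
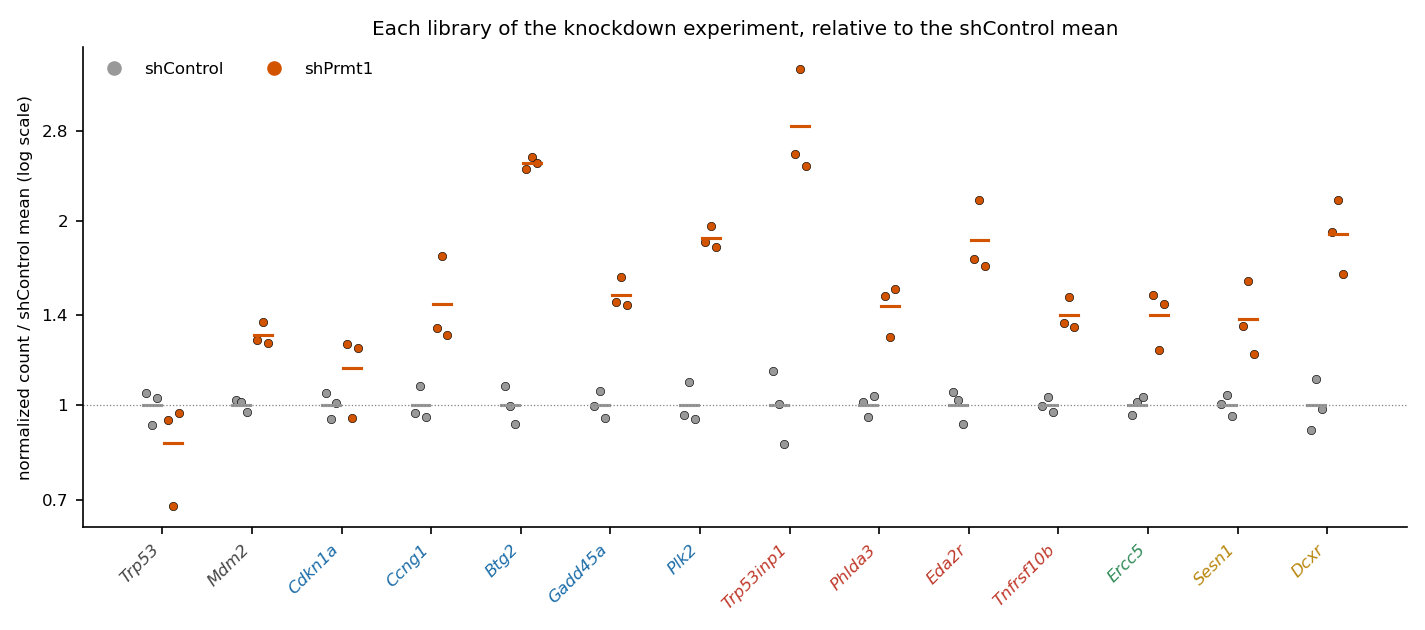
Normalized count of each library divided by the shControl mean (y axis, log scale) for Trp53, Cdkn1a and the 12 members called higher in shPrmt1 cells (x axis). Points are libraries and bars group means. The shPrmt1 points of Btg2 lie close together near 2.49, while those of Trp53 and Cdkn1a hold 1 low library, shPrmt1 2.

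With MS023, 7 members were higher than with vehicle and 1 was lower, and none of the arrest genes was among them. Fas, Trp53inp1 and Sesn1 rose most (2.10-, 1.60- and 1.43-fold), and Rrm2b fell to 0.624 of the vehicle mean. A single limma fit took all 9 inhibitor and vehicle libraries over 13014 genes, of which 31 were members, each with at least 10 normalized counts in all 9 libraries. The share of members called with MS023, 25.8%, was near that of all genes, 27.9%. The share called higher was 22.6% against 13.7% of all genes, and the share called lower 3.23% against 14.1%. With all libraries scaled to an equal total, calls over all genes went from 1784 higher and 1841 lower to 2200 and 1509, and those over the members to 9 higher and 1 lower. Groups did not overlap in 13 members (41.9%), against 44.5% of all genes. The median log2 fold change of the members was 0.09, against 0.0028 over all genes.

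Sesn1 had 579, 622 and 604 normalized counts with vehicle and 858, 845 and 881 with MS023, a log2 fold change of 0.52 ± 0.07 (SE, limma adjusted p = 0.000446). Rrm2b had 3189, 3110 and 3239 with vehicle and 1874, 2217 and 1865 with MS023, a log2 fold change of -0.68 ± 0.10 (limma adjusted p = 0.000636). Trp53inp1 had 1506, 1160 and 1456 with vehicle and 2120, 2377 and 2085 with MS023, a log2 fold change of 0.68 ± 0.15 (limma adjusted p = 0.00722). In these genes every MS023 library was outside the vehicle range, and the 3 calls held with each of the 9 libraries left out in turn.

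The other 5 increases with MS023 were small or rested on few reads. Mdm2 had 7842, 7256 and 7482 normalized counts with vehicle and 8454, 8595 and 8359 with MS023 (log2 fold change 0.17 ± 0.06, limma adjusted p = 0.0419). Bax had 6911, 6297 and 6324 with vehicle and 7483, 7215 and 8054 with MS023 (0.22 ± 0.06, limma adjusted p = 0.0170). Phlda3 had 2923, 2675 and 2646 with vehicle and 3145, 3206 and 3242 with MS023 (0.22 ± 0.06, limma adjusted p = 0.0232). These groups were separate, with gaps that were small beside the levels. Tnfrsf10b had 2404, 2290 and 2281 with vehicle and 2726, 2605 and 2613 with MS023 (0.19 ± 0.05, limma adjusted p = 0.0221). Fas, the death receptor for the Fas ligand, had 15.9, 13.2 and 19.3 with vehicle and 38.7, 31.7 and 31.0 with MS023 (1.03 ± 0.30, limma adjusted p = 0.0251), from 13 to 62 reads per library. Phlda3 and Tnfrsf10b lost their calls without vehicle 2 or 3 or any 1 of the MS023 libraries (adjusted p up to 0.0844 and 0.0786). The call of Mdm2 was lost without these same libraries or GSK3368715 1 (up to 0.126), that of Fas without vehicle 2 or any MS023 library (up to 0.0865), and that of Bax without vehicle 3 or MS023 3 (up to 0.0737). The number of members called was 4 without vehicle 3 or MS023 2, 5 without MS023 1 and 3 without MS023 3, fits in which calls over all genes went from 3625 to between 2409 and 2661. It was 11 without vehicle 1, 10 without GSK3368715 2 and 8 without vehicle 2, of which 4 were among the 8 called with all libraries. Calls over all genes were 3407, 3726 and 3409 without vehicle 1, GSK3368715 2 and vehicle 2.

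The arrest genes had a median log2 fold change of -0.10 with MS023, and 5 of the 7 were below 0. Gadd45a varied widely among vehicle libraries, with 6146, 2819 and 4673 normalized counts, and had 2480, 2889 and 2923 with MS023. The groups overlapped through vehicle 2, and the log2 fold change of -0.65 ± 0.29 (SE, limma adjusted p = 0.121) became -0.96 (limma adjusted p = 0.0195) without it. Plk2 had 8332, 6115 and 7270 with vehicle and 5641, 5995 and 5975 with MS023, which were separate by a small gap. Its log2 fold change of -0.29 ± 0.11 (limma adjusted p = 0.0783) became -0.41 (adjusted p = 0.0145) without vehicle 2, when Plk3 was called lower as well. Vehicle 2 was the lowest vehicle library for 18 of the 31 members (58.1%), against 38.6% of all genes. Cdkn1a had 9371, 9704 and 9432 with vehicle and 9493, 10341 and 10879 with MS023 (log2 fold change 0.11 ± 0.07, limma adjusted p = 0.259), and Trp53 had 9812, 9344 and 9543 with vehicle and 8884, 8813 and 9406 with MS023 (-0.08 ± 0.05, limma adjusted p = 0.271). Dcxr just missed the threshold (log2 fold change 0.57, limma adjusted p = 0.0504).

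With GSK3368715, Sesn1 was higher and Rrm2b lower, and the other 29 members tested were not called. Sesn1 had 781, 757 and 735 normalized counts with GSK3368715, against the vehicle values above (log2 fold change 0.33 ± 0.07, SE, limma adjusted p = 0.0138). Rrm2b had 2178, 2812 and 2463 with GSK3368715 (log2 fold change -0.36 ± 0.10, limma adjusted p = 0.0377). Both groups were separate from vehicle. The call of Rrm2b was lost when vehicle 1, 2 or 3, MS023 1 or 3, or GSK3368715 1 or 3 was left out (adjusted p from 0.0529 to 0.113), and both calls were lost when the fit held only GSK3368715 and vehicle libraries (0.0548 for Sesn1 and 0.0611 for Rrm2b). Called members made up 6.45% of those tested, against 9.64% of all genes (5.16% higher and 4.47% lower), and groups did not overlap in 9 members (29.0%), against 27.7% of all genes.

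Trp53inp1 had 1800, 2536 and 1649 normalized counts with GSK3368715, all above the vehicle range, and narrowly missed the threshold (log2 fold change 0.52 ± 0.15, limma adjusted p = 0.0529). edgeR and DESeq2 on the recovered reads called it (adjusted p = 0.0475 and 0.00468). Fas had 34.3, 39.7 and 20.8 with GSK3368715 (0.90 ± 0.30, limma adjusted p = 0.0838), above the vehicle range as well. Mdm2 had 8204, 8358 and 7457 (0.09 ± 0.06, limma adjusted p = 0.353), Cdkn1a 8938, 9239 and 10248 (-0.01 ± 0.07, limma adjusted p = 0.963) and Trp53 9430, 8929 and 9861 (-0.03 ± 0.05, limma adjusted p = 0.808). These 3 genes overlapped with vehicle. Cdkn1a, whose fold change lay at 0 within its error, was at 0.008 with all libraries scaled to an equal total.

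**Figure D3:**
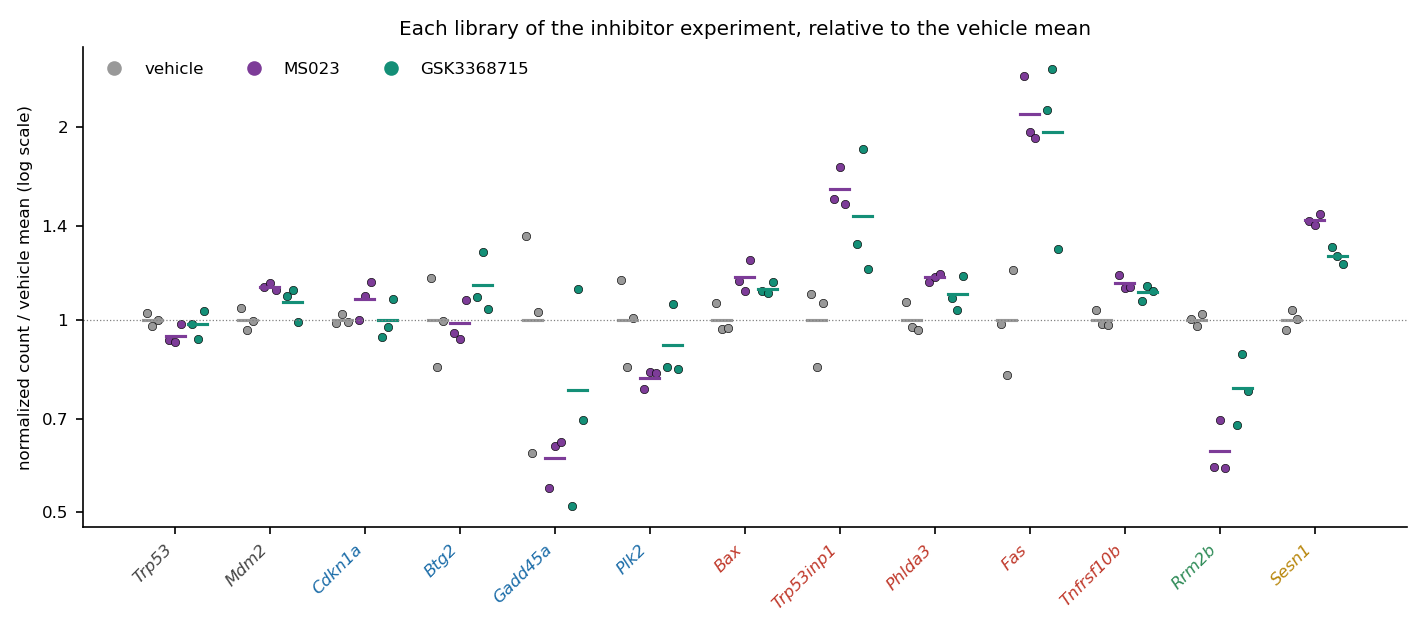
Normalized count of each library divided by the vehicle mean (y axis, log scale) for the 8 members called with an inhibitor and for Trp53, Cdkn1a, Btg2, Gadd45a and Plk2 (x axis). Points are libraries and bars group means. Both inhibitors lie above vehicle in Sesn1 and below it in Rrm2b, and the vehicle libraries of Gadd45a spread from 2819 to 6146 normalized counts.

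The inhibitors, at the same dose and time, were compared directly, since each had been set against the same vehicle libraries. No member was called between GSK3368715 and MS023 by limma, edgeR or DESeq2, and 2 of 31 members, Rrm2b and Sesn1, had an unadjusted limma p under 0.05. Of all genes 0.515% were called, 0.315% higher and 0.2% lower with GSK3368715. The log2 difference, GSK3368715 minus MS023, was 0.32 for Rrm2b (95% interval 0.11 to 0.53, limma adjusted p = 0.185) and -0.19 for Sesn1 (limma adjusted p = 0.273), so that in both genes the MS023 mean was the farther from vehicle. For Cdkn1a it was -0.11 (95% interval -0.26 to 0.03, limma adjusted p = 0.509), for Mdm2 -0.08 (-0.21 to 0.04, limma adjusted p = 0.573) and for Trp53 0.06 (-0.06 to 0.17, limma adjusted p = 0.692). Groups did not overlap in 3 members (9.68%), against 21.4% of all genes. The 95% intervals of the members reached from -0.79 to 0.92 at their farthest ends.

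The knockdown and MS023, which have separate controls, can be set beside each other gene by gene. Mdm2, Phlda3, Sesn1, Tnfrsf10b and Trp53inp1 were called higher in both, which is 41.7% of the 12 genes called higher in shPrmt1 cells and 71.4% of the 7 called higher with MS023. Among these shared genes, only Trp53inp1 kept both calls with each library left out in turn. Over all genes, 441 were called higher in both, which is 51.2% of the 861 called higher in shPrmt1 cells and 24.7% of the 1784 called higher with MS023. Of the arrest genes that rose in shPrmt1 cells, 3 were below 0 with MS023 and none of them was called there: Btg2 (1.30 and -0.01, the latter 0.02 with all libraries scaled to an equal total), Plk2 (0.91 and -0.29) and Gadd45a (0.60 and -0.65). Eda2r rose in shPrmt1 cells (0.89) and not with MS023 (0.04), and Rrm2b fell with MS023 (-0.68) and was not called in shPrmt1 cells (-0.22). The differences between the experiments were not tested. For Btg2 and Gadd45a the control levels of the experiments also lay far apart, at 77.2 and 281 normalized counts in shControl against 618 and 4546 with vehicle, where Trp53 had 3700 and 9567. Such a gap was not particular to Btg2 and Gadd45a. Trp53inp1, called higher in both experiments, had 122, 108 and 92.9 in shControl against 1506, 1160 and 1456 with vehicle. Over the 30 members tested in both, the log2 fold changes were weakly related (Pearson 0.278, Spearman 0.157, across genes, which are not independent).

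**Figure D4:**
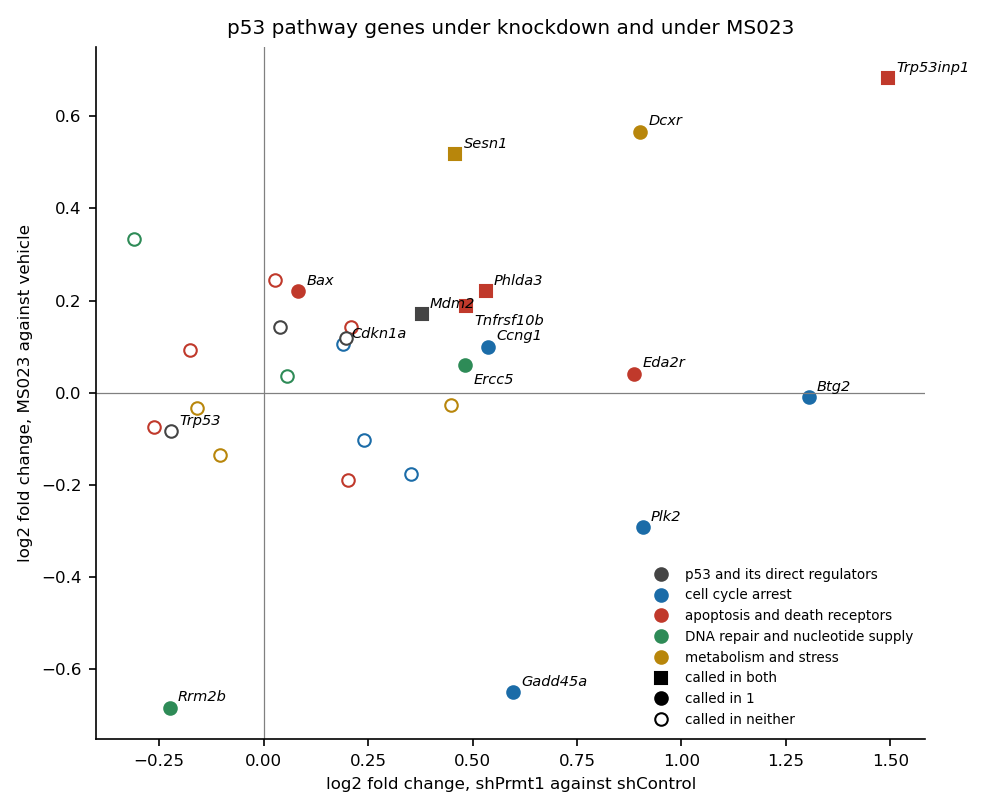
Log2 fold change in shPrmt1 cells (x axis) against that with MS023 (y axis) for the 30 members tested in both experiments, coloured by role. Squares were called in both comparisons. The arrest genes Btg2, Plk2 and Gadd45a lie to the right of 0 and below it, and the 5 genes called in both lie above 0 on each axis.

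In all, 15 members were called in at least 1 comparison and 20 in none, among them Pmaip1, Perp, Sesn3 and Gdf15, which were not tested. Calls took in 14.7% of all genes in shPrmt1 cells, 27.9% with MS023, 9.64% with GSK3368715 and 0.515% between the inhibitors. The share of all genes called in at least 1 comparison was not counted. Several defining targets were at or near 0. Pmaip1, the BH3-only gene NOXA, had no read in any of the 15 libraries, Perp, a desmosomal death effector, had 1 read in 1 vehicle library, and Sesn3 had 1 read in 1 MS023 library. Gdf15, a secreted stress cytokine, had 1 read in the knockdown experiment and 6 to 10 reads per library in the inhibitor experiment, where its levels overlapped. Fas was under the minimum in the knockdown experiment, with 2, 1 and 0 reads in shControl and 5, 12 and 7 in shPrmt1 libraries, all shPrmt1 values above all shControl values. It was called higher there when no minimum was set. A count of 0 allows up to 3 reads in a library, and this limit covers counting error only.

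Further p53 targets and upstream regulators were read from 2 lists. Of 25 other targets, 24 were listed and 20 tested in the knockdown experiment, where 5 rose and 1 fell, 30% of those tested against 14.7% of all genes. Dram1, a lysosomal regulator of autophagy, had 49.3, 51.8 and 45.3 normalized counts in shControl and 94.9, 120 and 106 in shPrmt1 libraries (log2 fold change 1.11 ± 0.16, limma adjusted p = 0.00331). Thbs1, the matrix protein thrombospondin 1, rose by 0.60 ± 0.07 (limma adjusted p = 0.00149), and the heparan sulfatase gene Sulf2 changed by -0.84 ± 0.18 (limma adjusted p = 0.0186), a call lost without shControl 1 or 2 or shPrmt1 3 (adjusted p up to 0.0929). Exons of Sulf2 share 154 bases with Ncoa3 on the other strand, which had 12796 reads in the knockdown and 56410 in the inhibitor experiment. Psrc1, Gpx1 and Steap3 were the other increases. Steap3 rested on few reads, 1, 4 and 4 in shControl and 19, 11 and 13 in shPrmt1 libraries. It reached the minimum of 10 normalized counts only through the shPrmt1 libraries, so its place among the 5 is weak. With MS023, 5 of 21 rose and none fell (23.8% called, against 27.9% of all genes), among them Dram1 (0.74 ± 0.12, limma adjusted p = 0.00124), Thbs1, Gpx1 and Sulf2, which was higher here (0.58 ± 0.17, limma adjusted p = 0.0296, up to 0.094 without vehicle 1 or 3 or any MS023 library). With GSK3368715 Thbs1 was the single call (0.55 ± 0.06, limma adjusted p = 0.00103), 4.76% of those tested against 9.64% of all genes. Psrc1, Gpx1 and Steap3, and Thbs1 with MS023, were named after their values were seen.

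Of 21 upstream regulators, 1 of 17 tested rose and 1 fell in shPrmt1 cells, 3 of 19 rose with MS023 and 2 of 19 with GSK3368715. The shares called were 11.8%, 15.8% and 10.5%, against 14.7%, 27.9% and 9.64% of all genes, and in each comparison Rpl5, which shares reads with a copy, was among the increases. Cdkn2a, which encodes the MDM2 inhibitor ARF, was listed at 0 in all 15 libraries. The decrease was in Ppp1r13l and the third increase with MS023 in Hipk2, both named after their values were seen. Trp63, the p53 relative, had 29.3, 22.3 and 19.3 normalized counts with vehicle, 53.1, 49.2 and 50.4 with MS023 and 54.1, 62.3 and 40.2 with GSK3368715. Its log2 fold changes were 1.09 ± 0.24 and 1.11 ± 0.24 (limma adjusted p = 0.00695 and 0.0170). The call with GSK3368715 was lost without vehicle 3 (limma adjusted p = 0.0634), GSK3368715 1 (0.0552) or GSK3368715 2 (0.0572). It was also lost when the fit held only GSK3368715 and vehicle libraries (0.0595).

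Rpl5, a ribosomal protein that binds MDM2, was called higher in shPrmt1 cells and with both inhibitors, with log2 fold changes of 0.72, 1.21 and 0.85 (limma adjusted p = 0.000586, 2.48e-06 and 0.000108). Exons of Rpl5 share 953 bases with Fam69a on the other strand, which had 1593 reads in the knockdown and 7088 in the inhibitor experiment. A copy, Gm15500, was identical over 99.9% of its own transcript, which matched 49.8% of the longest Rpl5 transcript. Gm15500 held most of the reads, with a mean of 23209 normalized counts in shControl against 2517 for Rpl5. Summed over both, the log2 difference from the controls was 0.006 in shPrmt1 cells, -0.07 with MS023 and 0.01 with GSK3368715. Whether Rpl5 itself changed is therefore uncertain.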

How the data were processed

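RNA was sequenced as paired-end reads, 3 libraries per group. Per the study's methods the authors quantified the reads with Salmon (1.4.0 in the submitters' processing notes) on mm10. What they deposited is a normalized signal per gene, the counts after division by the size factor that DESeq2 gave each library. Each deposited value was a whole multiple of a constant of its library (100% of values, within 0.05 of a read), which gave back whole reads. The authors' tables of fold changes and p-values were not used.

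Genes that reached 10 normalized counts in 3 or more libraries of the fit entered limma's two-sided moderated test (lmFit, then eBayes with trend) on log2(value + 1), which understates the change of low genes, with Benjamini-Hochberg adjustment over all genes tested, at 0.05. Nothing beyond the term biological replicate says that libraries came from separate cultures, so p-values measure the spread between these libraries, which may be technical. The members, roles and lists were chosen with earlier results of these data known. All 35 members were accounted for, with library values for those called, and of the 2 further lists the at most 4 called genes per comparison with the largest change and a mean of at least 50. Alternatives were other pseudocounts, filters and scalings, no trend, a replicate block, only the groups compared, edgeR and DESeq2 on recovered reads, and each library left out. The test was tried on simulated counts. Coordinates are from GENCODE M21 (mm10). Whether the counting used strand is not given in the sources used here. The tools were limma 3.58.1, edgeR 4.0.16 and DESeq2 1.42.0 in R 4.3.3.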

Additional observations from a re-analysis of the deposited data

Results flagged for a closer look

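Rpl5 differed between the inhibitors in the direct comparison at the same dose and time: its log2 fold change, GSK3368715 against MS023, was -0.355 (limma adjusted p = 0.0372), with 11238, 11249 and 10704 normalized counts with GSK3368715 and 15259, 14192 and 13061 with MS023, lower in 3 of 3 libraries. Its copy Gm15500 had means of 59982 and 53123 normalized counts, in the opposite order, so how the reads were split between the copies is part of the value. The call was lost in 10 of 20 alternatives, among them without vehicle 3 or any 1 of the MS023 or GSK3368715 libraries (adjusted p from 0.0526 to 0.162).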

How the results depend on the processing

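In shPrmt1 cells the 12 calls became 10 to 17 under other pseudocounts, filters, scalings, tools and the replicate block, and 8 to 20 with 1 library left out. Calls over all genes moved too, from 1684 to between 1336 and 2671 under those settings and between 652 and 2472 with 1 library left out. Sesn1 and Dcxr lost their calls with no filter on low values (limma adjusted p = 0.0615 and 0.0519). With no trend in eBayes, Ccng1 and Sesn1 lost theirs (0.0518 and 0.0516). With MS023 the 8 calls became 6 to 11 under the other settings and 3 to 11 with 1 library left out. Calls over all genes went from 3625 to between 3172 and 4026 and between 2409 and 3726, respectively. Mdm2 and Fas lost their calls with no filter on low values (limma adjusted p = 0.0633 and 0.0609), and Mdm2 with no trend (0.0684). With GSK3368715 the 2 calls became 3 with a minimum of 50 normalized counts, edgeR or DESeq2, which added Trp53inp1, 1 with no trend in eBayes, 0 with only the groups compared in the fit, and 1 to 3 with 1 library left out. Over all genes, the 1254 calls became 1281, 1242 and 1810 with that minimum, edgeR and DESeq2. They became 1004 with no trend, 597 with only the groups compared, and 586 to 1274 with 1 library left out. The causes were not tested. No setting called a member between the inhibitors, where the 67 calls over all genes became 377 with DESeq2, 8 with no trend and 4 with the replicate block. Fold changes near 0 changed sign: with all libraries scaled to an equal total, Btg2 with MS023 went to 0.0244 and Cdkn1a with GSK3368715 to 0.00817. Over the libraries left out, Btg2 with MS023 ran from -0.126 to 0.102, Eda2r with MS023 from -0.00929 to 0.0795, Trp53 with GSK3368715 from -0.0599 to 0.0118, Cdkn1a with GSK3368715 from -0.0643 to 0.0344, Ercc5 with GSK3368715 from -0.0046 to 0.197, and Fas between the inhibitors from -0.32 to 0.13. With the replicate number as a block, 17 members were called in shPrmt1 cells (16 higher, 1 lower), 7 with MS023, where Mdm2 lost its call, and 2 with GSK3368715. Calls over all genes with the block were 2671, 3219 and 860, against 1684, 3625 and 1254 without it. The numbers are not stated to mark a shared culture or day. Deviations of same-numbered knockdown libraries correlated at 0.061, 0.12 and 0.081, each library best with its own number, and those of the inhibitor experiment from -0.10 to 0.11. With 3 libraries per group, the median 95% interval of a member's log2 fold change reached 0.23 to each side in the knockdown and 0.19 in the inhibitor experiment.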
